A study of Mus musculus with 22 samples.

Results

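The cells described here were LSK cells of mouse fetal liver, the sorted Lin-Sca-1+c-Kit+ fraction that holds blood stem and multipotent progenitor cells, in which transcripts of 6 genes of late cell cycle added up to at least 6 counts. The genes were Cdc20, Ccnb1, Plk1, Cenpe, Cenpf and Top2a. The rule took 2148 of the 15678 cells kept from 4 single-cell libraries: 491 and 641 cells in KO 1 and KO 2, and 504 and 512 cells in WT 1 and WT 2. The number of cells kept was 4920 and 3884 in the KO libraries, and 2731 and 4143 in the WT libraries. Since counts chose the cells, the levels of these 6 genes and the contrast between the chosen and the other cells are given as descriptions, with no test.

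All embryos were taken at E14.5 and carried Mettl3 fl/fl. KO embryos also carried Vav-Cre, whose promoter acts in blood cells, and WT embryos lacked it. Mettl3 encodes the catalytic protein of the complex that places N6-methyladenosine (m6A) on messenger RNA. LSK cells gave single-cell RNA-seq in microwells (2 KO and 2 WT libraries), bulk RNA-seq (3 and 3) and CUT&RUN of H3K4me3 (2 and 2). Each library is labelled a biological replicate. The labels give neither the sex of the embryos nor the number of embryos behind a library.

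At the entry into mitosis, cyclin B1 (Ccnb1) activates the kinase Cdk1, and the kinase Plk1 takes part in maturing the spindle poles. Chromosomes attach to spindle microtubules through kinetochores, to which the motor protein Cenpe and the large coiled-coil protein Cenpf bind, while topoisomerase II alpha (Top2a) disentangles the copied DNA. Cdc20 then activates the anaphase-promoting complex (APC/C), a ubiquitin ligase that marks cyclin B1 for destruction. Transcripts of these genes accumulate in G2 and M phase, and Top2a already accumulates in late S phase, so counts of them mark late-cycle cells rather than condensed chromosomes.

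The promoters of such genes are known for CCAAT boxes, which the factor NF-Y binds, and for the cell cycle genes homology region (CHR), which the DREAM and MYB-MuvB complexes bind. The 120 bases before the start of each of the 6 genes are shown because these genes define the cells. They are from RefSeq (GRCm38.p6), 5′ to 3′ on the gene's strand, with capitals marking CCAAT on either strand (CCAAT or ATTGG) and CHR letters (TTTGAA, its reverse complement TTCAAA, or TTCGAA). The windows were chr4:118437344-118437463 on the minus strand for Cdc20, chr13:100786487-100786606 on the minus strand for Ccnb1, chr7:122159315-122159434 on the plus strand for Plk1, chr3:135212443-135212562 on the plus strand for Cenpe, chr1:189688087-189688206 on the minus strand for Cenpf, and chr11:99024190-99024309 on the minus strand for Top2a.
Cdc20: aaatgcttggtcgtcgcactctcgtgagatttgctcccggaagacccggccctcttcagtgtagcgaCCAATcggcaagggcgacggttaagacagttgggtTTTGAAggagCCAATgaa
Ccnb1: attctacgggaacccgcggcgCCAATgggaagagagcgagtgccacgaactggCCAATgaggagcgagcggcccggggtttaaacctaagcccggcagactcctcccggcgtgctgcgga
Plk1: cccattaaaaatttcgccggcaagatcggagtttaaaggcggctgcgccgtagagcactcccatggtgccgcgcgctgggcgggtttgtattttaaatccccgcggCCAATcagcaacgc
Cenpe: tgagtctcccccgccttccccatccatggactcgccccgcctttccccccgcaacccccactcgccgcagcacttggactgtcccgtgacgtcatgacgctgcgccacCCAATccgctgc
Cenpf: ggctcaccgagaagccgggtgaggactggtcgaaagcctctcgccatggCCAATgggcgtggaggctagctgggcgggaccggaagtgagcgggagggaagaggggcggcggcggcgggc
Top2a: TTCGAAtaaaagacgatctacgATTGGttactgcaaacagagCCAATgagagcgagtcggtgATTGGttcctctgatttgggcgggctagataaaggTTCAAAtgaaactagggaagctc

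Each of the 6 windows held CCAAT letters: 2 matches at Cdc20, 2 at Ccnb1, 1 each at Plk1, Cenpe and Cenpf, and 3 at Top2a. The CHR letters matched once at Cdc20 and 2 times at Top2a. Of 32851 RefSeq promoter windows of the same length, 21.3% held CCAAT and 7.59% held the CHR letters on either strand. A match is a description of the letters and not a measured binding site.

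The libraries differed in depth and content before any comparison. Median counts per cell were 1478.5 and 2134.5 in KO 1 and KO 2, and 2099 and 1560 in WT 1 and WT 2. Both KO libraries held Xist transcripts (320 and 304 CPM, counts scaled to the library's total, over all kept cells) and 0 counts of the Y-linked Ddx3y, Eif2s3y, Kdm5d and Uty, while both WT libraries held 0 counts of Xist and some of all 4 Y-linked genes, so genotype and sex cannot be told apart in the single-cell data. The neutrophil genes S100a8 and S100a9 were higher in the libraries numbered 1, and so were the summed erythroid genes, given below. The summed granulocyte genes were higher in library 1 within each genotype, although in the chosen cells KO 2 lay above WT 1. In the chosen cells S100a8 had 608 CPM in KO 1 and 10.7 CPM in KO 2, and 212 CPM in WT 1 and 10.8 CPM in WT 2. Library pairs shared 0 to 3 cell barcodes. In bulk LSK cells Mettl3 was at 4.13, 6.31 and 5.52 CPM in KO, against 43.0, 43.0 and 33.2 CPM in WT (log2 fold change -2.91, SE 0.17). In the single-cell table Mettl3 did not separate the groups among the chosen cells (54.3 and 45.3 CPM in KO, 46.5 and 38.4 CPM in WT). The deleted part of the gene is not given in the sources used here, so those counts do not check the genotype.

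Depth per cell moved strongly with the rule. The chosen cells had median counts of 3765 and 5609 in KO 1 and KO 2 and of 4358 and 3619 in WT 1 and WT 2, while the other cells had 1392 and 1840 in KO and 1873 and 1447 in WT. Among cells with 500 to 1000 counts, 0.708% and 0.730% met the rule in KO 1 and KO 2, and 1.87% and 0.399% in WT 1 and WT 2. Among cells with 5000 or more counts, 76.1% and 64.8% met it in KO and 74.3% and 80.9% in WT. So most deep cells of every library met the rule, and the label "mitotic" goes further than the counts do: the cells are called G2/M-marker cells below.

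**Figure D1:**
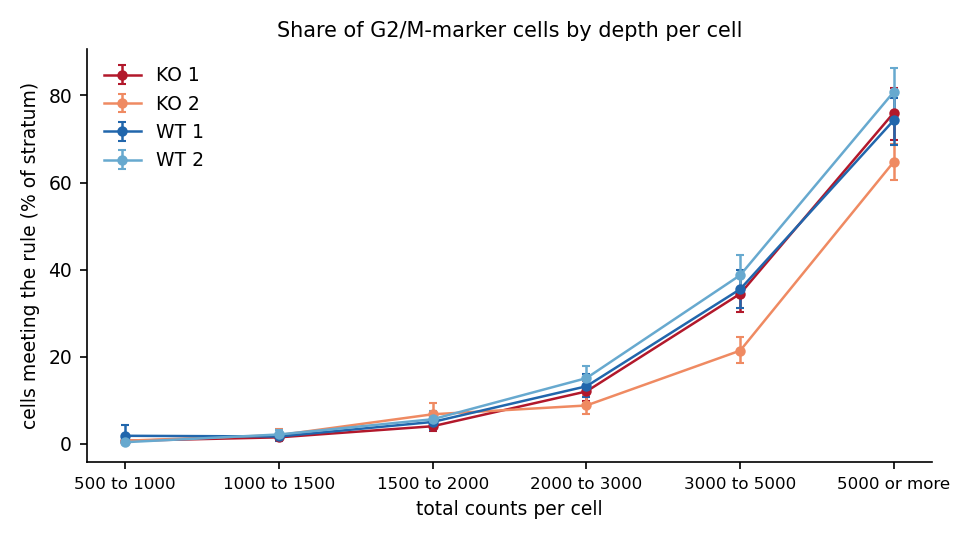
Percentage of kept cells that met the rule (y axis) within 6 strata of total counts per cell (x axis), one line per single-cell library, with exact 95% binomial intervals that cover counting error only. The share climbs from 0.399% to 1.87% in the shallowest cells to 64.8% to 80.9% in the deepest, and KO 2 lies lowest in the 3 deepest strata.

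At the limit of the rule, 204 and 178 cells of KO 1 and KO 2 and 139 and 153 cells of WT 1 and WT 2 had a marker sum of 5 and stayed outside. A sum of exactly 6 was reached by 125 and 120 KO cells and by 114 and 109 WT cells. The cells just inside had median depths of 2511 and 3324 counts in KO and 3302.5 and 2619 counts in WT. The cells just outside had 2229.5 and 3544.5 counts in KO and 2809 and 2390 counts in WT, so no clear gap in the data separates the sets.

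The G2/M-marker cells rarely rested on a single gene. Among them 89.0% and 87.2% in KO 1 and KO 2, and 90.5% and 91.0% in WT 1 and WT 2, held at least 3 of the 6 transcripts, with a median of 4 in each library. All 6 were present in 8.76% and 15.9% of KO cells and in 8.73% and 12.3% of WT cells. Only 6, 9, 10 and 14 cells of KO 1, KO 2, WT 1 and WT 2 met the rule through 1 gene.

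Top2a contributed most: 35.6% and 40.5% of the marker counts in KO, and 34.5% and 39.8% in WT. It was detected in 93.1% and 93.8% of KO and 90.5% and 93.8% of WT G2/M-marker cells, but also in 41.7% and 39.3% of the other KO cells and 38.9% and 40.5% of the other WT cells. Cenpe gave 25.3% and 22.2% of the marker counts in KO and 20.04% and 20.2% in WT, and Cenpf gave 19.0% and 17.0% in KO and 17.8% and 17.5% in WT. Plk1 gave the fewest, with 4.72% and 4.66% in KO and 5.15% and 4.65% in WT. Plk1 was detected in 35.4% and 38.8% of the KO cells and in 41.9% and 37.7% of the WT cells. The rule therefore leaned on the DNA and kinetochore genes more than on Plk1, Cdc20 or Ccnb1.

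The first question was whether the share of late-cycle cells differed without Mettl3. At the deposited depth 9.98% and 16.5% of cells met the rule in KO 1 and KO 2, against 18.5% and 12.4% in WT 1 and WT 2. The groups overlapped, with 13.2 ± 4.61% in KO and 15.4 ± 4.31% in WT (SD, n = 2 each). The difference of -2.16 percentage points had p = 0.667 in a two-sided exact permutation test, which with 2 libraries a group cannot go below 0.333. Without KO 1 the difference was 1.10 points and without WT 1 it was 0.883 points, so its direction depended on each of these libraries.

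To compare cells at 1 depth, every cell was thinned at random to 1000 counts and required to hold 3 or more of the marker counts. Cells under that depth were left out: 847 and 685 in KO 1 and KO 2, and 268 and 752 in WT 1 and WT 2. The thinned share was 13.5% and 12.2% in KO 1 and KO 2, against 13.8% and 15.6% in WT 1 and WT 2. All KO values lay below all WT values, with 12.8 ± 0.967% in KO and 14.7 ± 1.24% in WT (SD, n = 2 each), a difference of -1.88 points. The exact permutation p was 0.333, the smallest this design allows. The counting intervals of KO 1 (12.5 to 14.6%) and WT 1 (12.5 to 15.3%) overlapped. The SD within a genotype was thus smaller after thinning in both groups. The groups overlapped when cells were thinned to 1500 counts instead, with 27.2% and 21.1% in KO and 27.0% and 30.1% in WT (exact permutation p = 0.667). They also overlapped at 1000 counts with a threshold of 2, at 30.5% and 25.5% in KO and 27.1% and 31.2% in WT. Over the other thinning depths, thresholds and seed tried, the difference lay between -4.41 and -0.517 points.

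**Figure D2:**
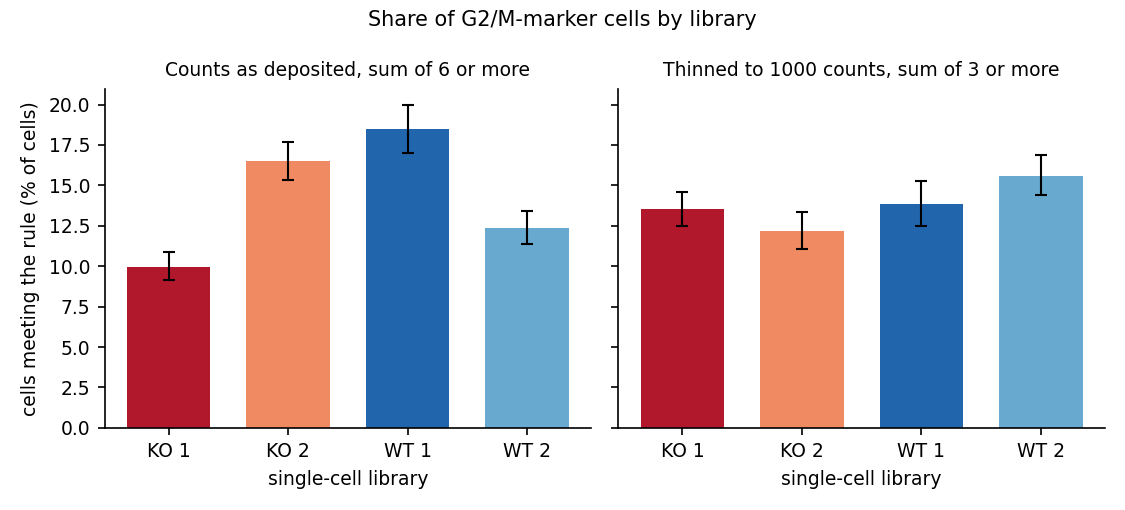
Percentage of cells that met the rule in each single-cell library (y axis), at the deposited depth (left) and after thinning each cell to 1000 counts (right), with exact 95% binomial intervals for counting error. Bars overlap between KO and WT on the left, and on the right the KO bars (13.5% and 12.2%) lie below the WT bars (13.8% and 15.6%).

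Only some cells met both versions of the rule. Of all G2/M-marker cells, 49.5% and 38.8% in KO 1 and KO 2, and 40.3% and 55.3% in WT 1 and WT 2, also passed after thinning. KO 2 had the deepest G2/M-marker cells, 19.0% of them over 10000 counts, against 4.48% in KO 1, 5.36% in WT 1 and 2.15% in WT 2. Within 2000 to 3000 counts the share was 12.0% and 8.82% in KO and 13.2% and 15.1% in WT. Within 3000 to 5000 counts it was 34.5% and 21.4% in KO and 35.5% and 38.7% in WT. KO lay below WT in these 2 of the 6 strata, KO 1 within the counting interval of WT 1. The groups overlapped in the other strata, among them 1000 to 1500 counts (1.51% and 2.01% in KO, 1.70% and 2.17% in WT) and 1500 to 2000 counts (4.06% and 6.80% in KO, 5.04% and 5.66% in WT). Summed over all kept cells, the 6 genes took 12.4 and 12.4 counts per 10000 in KO and 12.3 and 13.7 per 10000 in WT, and these ranges overlapped.

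The lineage of late-cycle cells was described on thinned counts, calling a cell marked for a lineage when it held 3 or more counts from that lineage's marker list, none of which is a rule gene. Among cells marked by stem cell genes, 18.3% and 18.9% in KO and 16.05% and 17.9% in WT met the thinned rule, each above the share among the remaining cells of the library (13.3% and 11.5% in KO, 13.7% and 15.4% in WT). Cells marked by lymphoid genes also stood above the rest, with 18.7% and 20.2% in KO and 21.7% and 23.0% in WT, against 13.4% and 11.9% of the rest in KO and 13.0% and 15.1% in WT. Granulocyte-marked cells held 12.1% and 12.7% in KO and 11.1% and 10.3% in WT, below the rest in KO 1, WT 1 and WT 2 but not in KO 2. Cells marked for a lineage were not tested as a class, and many intervals were wide: in WT 1 the stem-marked share had a 95% interval of 10.8 to 22.6%. The stem list includes Ly6a, an interferon-induced gene whose higher level in KO is given below. Its part in marking KO cells as stem was not tested.

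The lineages made up unequal parts of the late-cycle cells. Granulocyte-marked cells were 26.9% and 11.8% of the thinned late-cycle cells in KO and 8.21% and 4.73% in WT. Lymphoid-marked cells were 2.54% and 4.63% in KO and 15.5% and 8.51% in WT. The same order held among all thinned cells, of which 30.0% and 11.3% in KO and 10.2% and 7.17% in WT were granulocyte-marked, and 1.84% and 2.78% in KO and 9.91% and 5.78% in WT were lymphoid-marked.

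Genes outside the rule showed what else these cells shared. Ratios were taken within each library between the summed G2/M-marker cells and the summed other cells, both in CPM, for the 3056 genes with a mean of at least 50 CPM. Of a list of 50 other G2/M genes, 35 passed this limit, and 35 of 35 were higher in the G2/M-marker cells of all 4 libraries, against 45.2% of the genes at the limit. Their median log2 ratio was 0.72, against 0.14 over all genes. The cells were chosen on counts and the limit favours genes that are high in them, so these values describe the cells and test nothing.

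The 20 genes with the highest median ratio included 17 from the cell cycle lists. Spindle genes led. Hmmr, a spindle-assembly protein gene, had 267 and 266 CPM in KO and 320 and 368 CPM in WT G2/M-marker cells, against 121 and 97.6 CPM in other KO cells and 104 and 129 CPM in other WT cells, a median log2 ratio of 1.48. Nusap1, whose protein binds spindle microtubules, had a ratio of 1.37, the midzone bundler gene Prc1 1.27, and Tpx2, the activator of Aurora A, 1.22. Ube2c, the ubiquitin-conjugating enzyme of the APC/C, had a ratio of 1.16, and the kinase genes Aurka and Bub1 had 1.05 and 0.98. Kif22 and Kif11, spindle motor genes, had 1.02 each, and the centromere genes Incenp and Sgo2a had 1.01 and 0.96.

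Genes of the earlier cycle were higher less widely. Of 29 S phase genes at the limit, 9 (31.0%) were higher in all 4 libraries and 3 lower, with a median log2 ratio of 0.03. The polymerase clamp gene Pcna, named after its values were seen, had 325 and 407 CPM in KO and 418 and 411 CPM in WT G2/M-marker cells, against 304 and 465 CPM in other KO cells and 424 and 480 CPM in other WT cells. APC/C genes were higher in all 4 libraries for 6 of 13, with a median of 0.19, close to that of all genes. Genes of the spindle and cytokinesis were higher for 16 of 17, condensin and cohesin genes for 11 of 12 and kinetochore genes for 12 of 17.

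**Figure D3:**
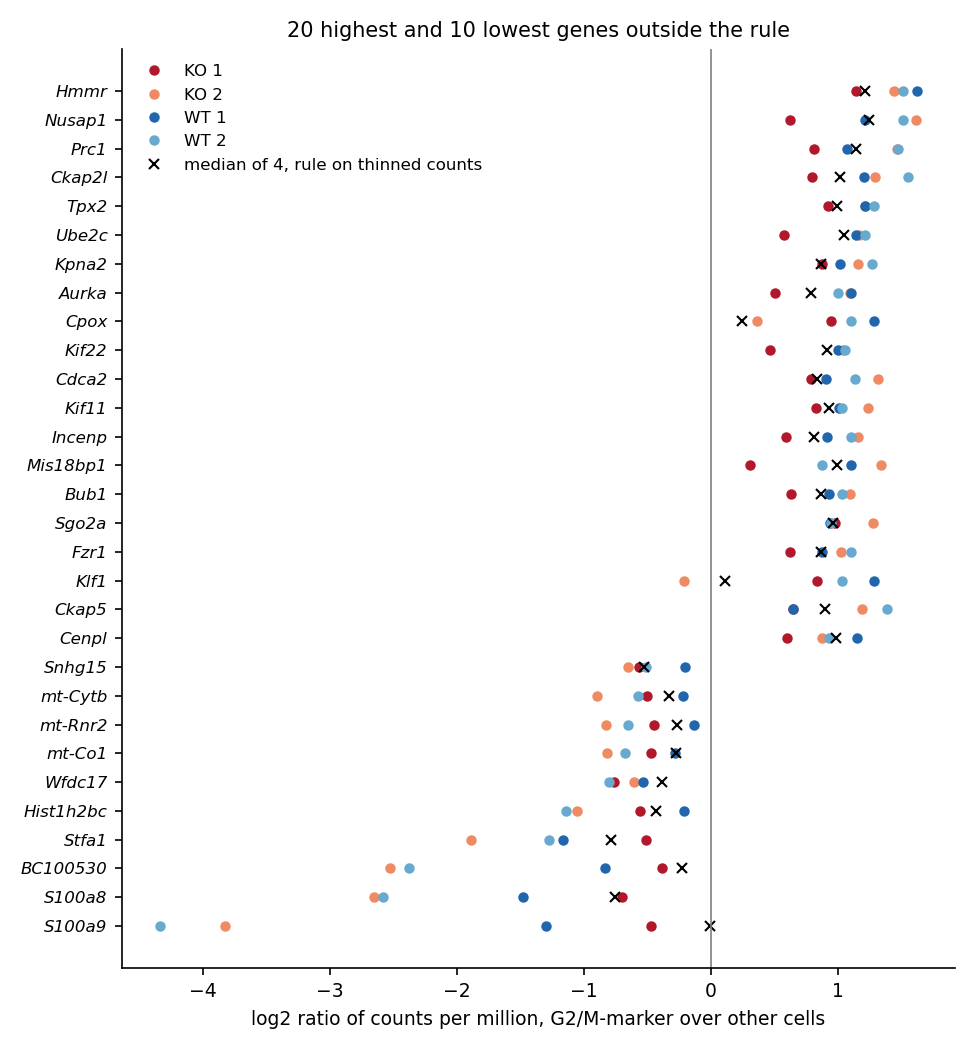
Log2 ratio of CPM in G2/M-marker cells over other cells of the same library (x axis) for the 20 highest and 10 lowest genes outside the rule (y axis), one dot per library. Crosses give the median of the 4 libraries when the cells were chosen on thinned counts: mitotic genes such as Hmmr and Nusap1 keep ratios over 1.2, while Cpox, Klf1 and S100a9 lie at 0.25, 0.12 and -0.00.

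Not all genes at the top were of the cycle. Cpox, an enzyme gene of heme synthesis, had a median log2 ratio of 1.03 and Klf1, a transcription factor gene of red cell precursors, 0.94. Klf1 ran from -0.21 in KO 2 to 1.28 in WT 1, and Cpox from 0.37 in KO 2 to 1.29 in WT 1. With the cells chosen on thinned counts the medians of Cpox and Klf1 were 0.25 and 0.12. Hmmr stayed at 1.22, Nusap1 at 1.25, Prc1 at 1.15 and Ube2c at 1.05. At the bottom stood S100a9 (-2.56) and S100a8 (-2.03), calcium-binding protein genes of neutrophils. The mitochondrially encoded mt-Co1 (-0.57), mt-Rnr2 (-0.55) and mt-Cytb (-0.54) were low as well. S100a9 ratios ran from -4.34 to -0.47 over the libraries, and its G2/M-marker cells held only 0.93 CPM in KO 2 and 0.47 CPM in WT 2. On thinned counts S100a9 was at -0.00 and S100a8 at -0.75. Mitochondrial transcripts were 4.13% and 1.73% of a G2/M-marker cell's counts in KO and 3.56% and 2.54% in WT (medians), against 4.98% and 3.23% in other KO cells and 3.77% and 3.78% in other WT cells. With only cells of at least 2000 counts, the ratios were 0.88 for Cpox, 0.78 for Klf1, -1.96 for S100a8 and -1.86 for S100a9. These values differed from those on thinned counts, and the part of depth per cell in these non-cycle ratios was not tested.

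The sort markers were low in number but present. Kit, the gene of c-Kit, had 36.5 and 57.7 CPM in KO and 45.1 and 53.3 CPM in WT G2/M-marker cells, and Ly6a, the gene of Sca-1, had 40.7 and 51.7 CPM in KO and 9.47 and 12.7 CPM in WT. Ly6a is itself induced by interferon. Hepatocyte genes summed to 11.2 and 17.5 CPM in KO and 20.9 and 14.97 CPM in WT, over 6 of 12 listed genes in the table. Stromal genes summed to 4.65 and 6.54 CPM in KO and 4.83 and 7.95 CPM in WT, over 3 of 10.

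The second question was how expression within the G2/M-marker cells differed between KO and WT. Counts were summed over these cells in each library, and levels below are CPM scaled by edgeR's trimmed mean of M-values (TMM). Of 10140 genes tested, 4 were called at an adjusted p of 0.05 (0.0394%). Higher in KO were Xist and the interferon-stimulated Rtp4 (0.0197% of genes), and lower in KO the Y-linked Eif2s3y and Ddx3y (0.0197%). In the other cells 11 of 12786 genes were called (0.0860%), 6 higher (0.0469%) and 5 lower (0.0391%), these 4 among them. Rtp4 had 141 and 137 CPM in KO, against 10.4 and 21.2 CPM in WT, with no overlap. Its log2 fold change was 3.13 (SE 0.32, adjusted p = 0.0407, edgeR quasi-likelihood F test, Benjamini-Hochberg). In the other cells the log2 fold change of Rtp4 was 3.04, and the difference of the effects was 0.09 (adjusted p = 1). The count of calls moved when a library was left out. Such a fit leaves 1 library in a group, so a lost call in it cannot tell a smaller effect from less data. The Rtp4 call was lost without KO 1 or KO 2, while its log2 fold change was 3.12 and 3.16. It was also lost at a threshold of 8 marker counts (adjusted p = 0.0506), in cells with at least 2000 counts (adjusted p = 0.0549) and with the rule on thinned counts (adjusted p = 0.0687). Xist, at 315 and 270 CPM in KO and 0 in both WT libraries, was not called without KO 1. Its log2 fold change was 12.66 both in that fit and with all libraries. Ddx3y and Eif2s3y were not called without KO 1 or KO 2.

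Among the rule genes, 5 of 6, all but Cenpe, were lower in both KO than in both WT libraries, against 21.6% of all genes. At a threshold of 4, and with the rule on thinned counts, 4 of 6 were. Cdc20 had 186 and 167 CPM in KO, against 273 and 271 CPM in WT, a log2 fold change of -0.62. Ccnb1 had 165 and 157 CPM in KO, against 291 and 221 CPM in WT (-0.67). Plk1 had 108 and 96.8 CPM in KO, against 129 and 128 CPM in WT (-0.33). The ratio of counts of these 3 genes and Cenpe to those of Cenpf and Top2a overlapped. It was 0.833 and 0.739 in KO and 0.912 and 0.744 in WT. Cenpf had 433 and 353 CPM in KO, against 445 and 483 CPM in WT (-0.24), and Top2a had 811 and 841 CPM in KO, against 865 and 1095 CPM in WT (-0.25). Cenpe overlapped, with 577 and 461 CPM in KO and 502 and 555 CPM in WT (-0.03). These genes chose the cells, so their differences carry no test. In the other cells Ccnb1 alone was lower in both KO libraries, at 64.2 and 57.6 CPM, against 71.2 and 68.0 CPM in WT. There 23.4% of all genes lay below WT.

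**Figure D4:**
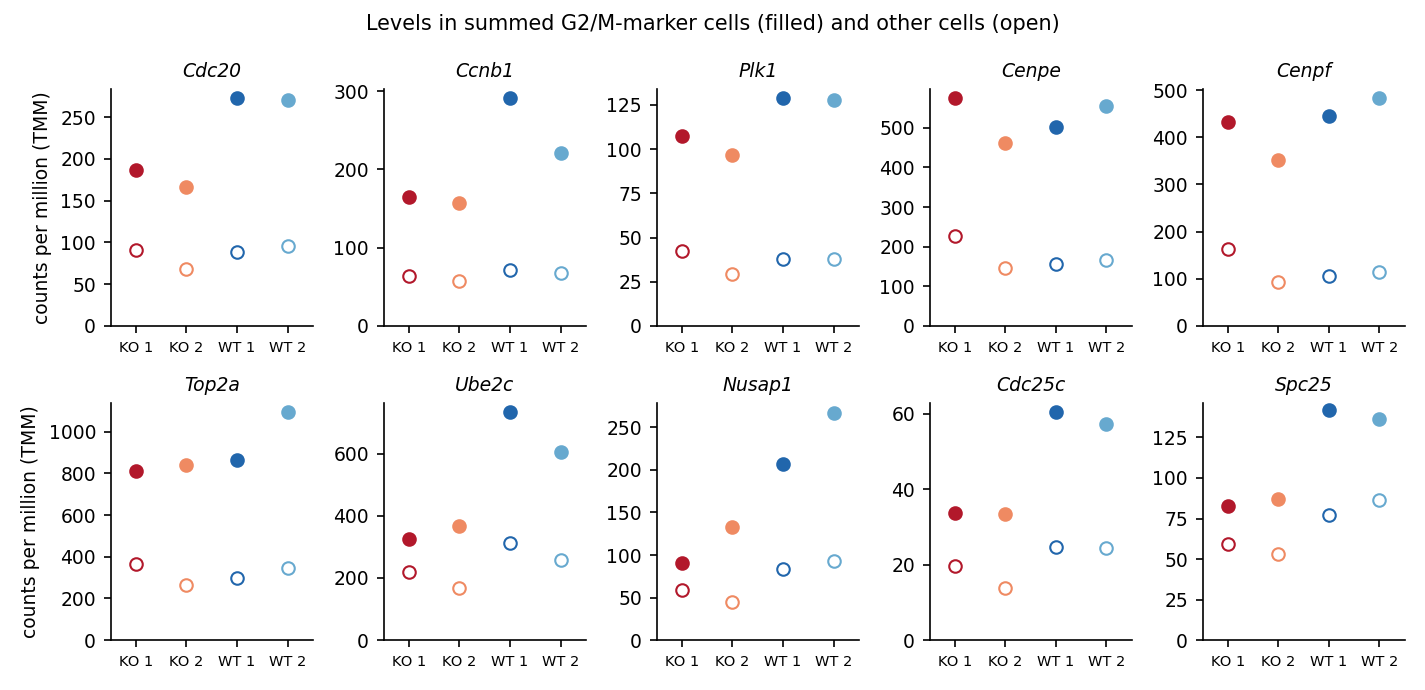
TMM-scaled CPM (y axis, from 0) of the 6 rule genes and of Ube2c, Nusap1, Cdc25c and Spc25 in each single-cell library (x axis), summed over G2/M-marker cells (filled) and over other cells (open). In G2/M-marker cells both KO points lie below both WT points for every gene shown except Cenpe. The last 4 genes were named for low p in this comparison, and none passed the adjusted threshold.

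Genes of mitosis outside the rule lay below WT more often than above it. Of the 50 other G2/M genes, all KO values lay below all WT values for 29 and above them for 1, against 21.6% and 23.8% of all genes. The median log2 fold change was -0.26, against -0.01 over all genes, and 0 were called by edgeR (13 at an unadjusted p under 0.05, 2 called by DESeq2). With no filter on low counts edgeR called 2, Nusap1 (adjusted p = 0.0235) and Ube2c (adjusted p = 0.0307), and with a replicate block it called 12. In the other cells of the same libraries 13 of the 50 lay below and 7 above, with a median of -0.04, against 23.4% and 24.5% of all genes there. With the cells chosen on thinned counts 24 of 50 lay below and 3 above, with a median of -0.23, against 22.0% and 23.2% of all genes. The exception, Tubb4b, a beta-tubulin gene named after its values were seen, lay above.

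Ube2c had 324 and 368 CPM in KO, against 734 and 604 CPM in WT. Its log2 fold change was -0.95 (SE 0.20, adjusted p = 0.197, edgeR with Benjamini-Hochberg). Nusap1 had 90.8 and 133 CPM in KO, against 207 and 267 CPM in WT, at -1.07 (SE 0.24, adjusted p = 0.221). DESeq2 gave Ube2c an adjusted p of 0.0146 and Nusap1 one of 0.0309, and these were its 2 calls in the list. Cdc25c, the phosphatase that activates Cdk1, had 33.7 and 33.4 CPM in KO, against 60.4 and 57.4 CPM in WT, at -0.81. The centromeric histone gene Cenpa had 267 and 248 CPM in KO, against 472 and 365 CPM in WT, at -0.70. For each of the 4 genes the groups did not overlap. They were named for the lowest p of the list in this same comparison, a choice that favours such separation.

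Cyclin and kinase genes lay below WT for 8 of 17 and above for 0, against 21.6% and 23.8% of all genes, and below for 4 of 17 with the rule on thinned counts. Their median log2 fold change of -0.08 was -0.23 without KO 2, -0.18 without WT 1, -0.04 without KO 1 and 0.01 by library size alone. Ccnb2, a second B-type cyclin gene, had 183 and 179 CPM in KO, against 329 and 243 CPM in WT, and Ccna2, the cyclin A2 gene, had 114 and 104 CPM in KO, against 160 and 135 CPM in WT. Ccnb2 had a log2 fold change of -0.66 and Ccna2 one of -0.44, and neither was called.

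Kinetochore genes lay below WT for 22 of 30 and above for 2, against 21.6% and 23.8% of all genes. Their median log2 fold change was -0.37. By edgeR 0 of 30 were called (5 at an unadjusted p under 0.05), and DESeq2 called 0. Spc25 and Ndc80 encode parts of the complex that holds microtubules. Spc25 had 82.8 and 86.9 CPM in KO, against 142 and 136 CPM in WT (-0.71), and Ndc80 had 48.2 and 50.2 CPM in KO, against 60.4 and 88.6 CPM in WT (-0.60). Ska2, of the Ska complex, had 42.1 and 36.9 CPM in KO, against 62.7 and 64.6 CPM in WT (-0.69). The 2 above were the shugoshin genes Sgo1 and Sgo2a, which guard cohesin at centromeres and were named after their values were seen. In the other cells 10 of 30 lay below and 3 above, against 23.4% and 24.5% of all genes there.

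Spindle and cytokinesis genes lay below WT for 13 of 31 and above for 2, against 21.6% and 23.8% of all genes. Their median of -0.23 rested on single libraries, being -0.07 without WT 2, -0.09 without KO 1 and -0.41 without WT 1. Racgap1, of the central spindle, had 56.2 and 60.6 CPM in KO, against 94.7 and 89.5 CPM in WT (-0.66), and its partner Kif23 had 132 and 157 CPM in KO, against 206 and 225 CPM in WT (-0.58). Hmmr had 269 and 251 CPM in KO, against 358 and 356 CPM in WT (-0.46). APC/C genes split, with 4 of 19 below and 4 above. Checkpoint genes split as well, 4 of 12 below and 2 above, among them Bub3 below, with 172 and 200 CPM in KO, against 251 and 270 CPM in WT. Condensin and cohesin genes had 6 of 18 below and 3 above, and the cohesin release factor gene Wapl was above, with 314 and 247 CPM in KO, against 171 and 187 CPM in WT.

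S phase genes did not share the direction. Of 43, all KO values lay below for 5 and above for 13, against 21.6% and 23.8% of all genes. The median log2 fold change was 0.05, and -0.03 without WT 1. Fen1, the flap endonuclease gene of DNA replication, had 185 and 147 CPM in KO, against 111 and 106 CPM in WT (0.61), and Usp1, a deubiquitinase gene of DNA repair, had 264 and 202 CPM in KO, against 166 and 172 CPM in WT (0.46). By edgeR and by DESeq2 0 of 43 were called, 2 and 1 of them at an unadjusted p under 0.05.

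Cell cycle inhibitor and quiescence genes, summed, had log2 ratios over other cells of -0.07 and 0.10 in KO and -0.02 and 0.19 in WT. Of 14 tested in G2/M-marker cells, 6 lay below WT and 1 above, against 21.6% and 23.8% of all genes. Their median of -0.56 was -0.32 without WT 1. Ccng2, an atypical cyclin gene linked to arrest, had 16.4 and 13.5 CPM in KO, against 37.9 and 40.7 CPM in WT (-1.41, adjusted p = 0.167, edgeR with Benjamini-Hochberg). The inhibitor gene Cdkn1b had 21.5 and 14.8 CPM in KO, against 33.8 and 23.0 CPM in WT (-0.67). In the other cells 9 of 14 lay below and 1 above, with a median of -0.41, against 23.4% and 24.5% of all genes there. In bulk 9 of 15 were called lower and 2 higher, against 22.6% and 21.6% of all genes, with a median of -0.53. Among p53 target genes in the G2/M-marker cells 4 of 16 lay below and 2 above. The 2 above were Tigar, an inhibitor gene of glycolysis at 18.3 and 14.1 CPM in KO, against 6.32 and 7.68 CPM in WT, and Perp, a membrane protein gene named after its values were seen, at 5.62 and 4.42 CPM in KO, against 3.61 and 2.26 CPM in WT. Genes of the E2F, MuvB and pocket protein families, which regulate cell cycle transcription, had 4 of 14 below and 3 above.

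Most interferon-stimulated genes lay above WT. Of 53 tested, 46 lay above WT and 1 (Herc6, named after its values were seen) below, against 23.8% and 21.6% of all genes. The median log2 fold change was 1.44, and 1 (Rtp4) was called by edgeR, against 0.0197% of all genes called higher. DESeq2 called 16 of the 53 higher, edgeR with no filter on low counts 32 of 60, and edgeR without KO 1 or KO 2 called 0. Usp18, which removes Isg15 from proteins, had 26.7 and 21.7 CPM in KO, against 3.16 and 2.71 CPM in WT (3.01, adjusted p = 0.0963, edgeR with Benjamini-Hochberg), and the oligoadenylate synthetase-like Oasl2 had 30.4 and 35.8 CPM in KO, against 4.96 and 7.68 CPM in WT (2.39). In the other cells the median was 1.30. The test of the difference called 0 of 59 interferon genes (1 at an unadjusted p under 0.05, and 0 called by DESeq2).

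Ribosome biogenesis genes lay above WT for 25 of 35 and below for 0, against 23.8% and 21.6% of all genes, with a median of 0.42. By edgeR 0 were called (15 at an unadjusted p under 0.05), and DESeq2 called 3. The nucleolar Ddx21 had 891 and 745 CPM in KO, against 403 and 489 CPM in WT (0.87), and Mybbp1a had 371 and 355 CPM in KO, against 160 and 188 CPM in WT (1.06). Genes of the m6A machinery lay above for 13 of 19 and below for 0 against the same shares, led by Wtap, a subunit of the methyltransferase complex, at 194 and 169 CPM in KO, against 66.3 and 58.8 CPM in WT (1.53, adjusted p = 0.0963, edgeR with Benjamini-Hochberg). Lymphoid genes lay below for 13 of 16, against 21.6% of all genes. Il7r, the interleukin 7 receptor gene, had 9.83 and 18.6 CPM in KO, against 42.9 and 47.9 CPM in WT (-1.62).

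**Figure D5:**
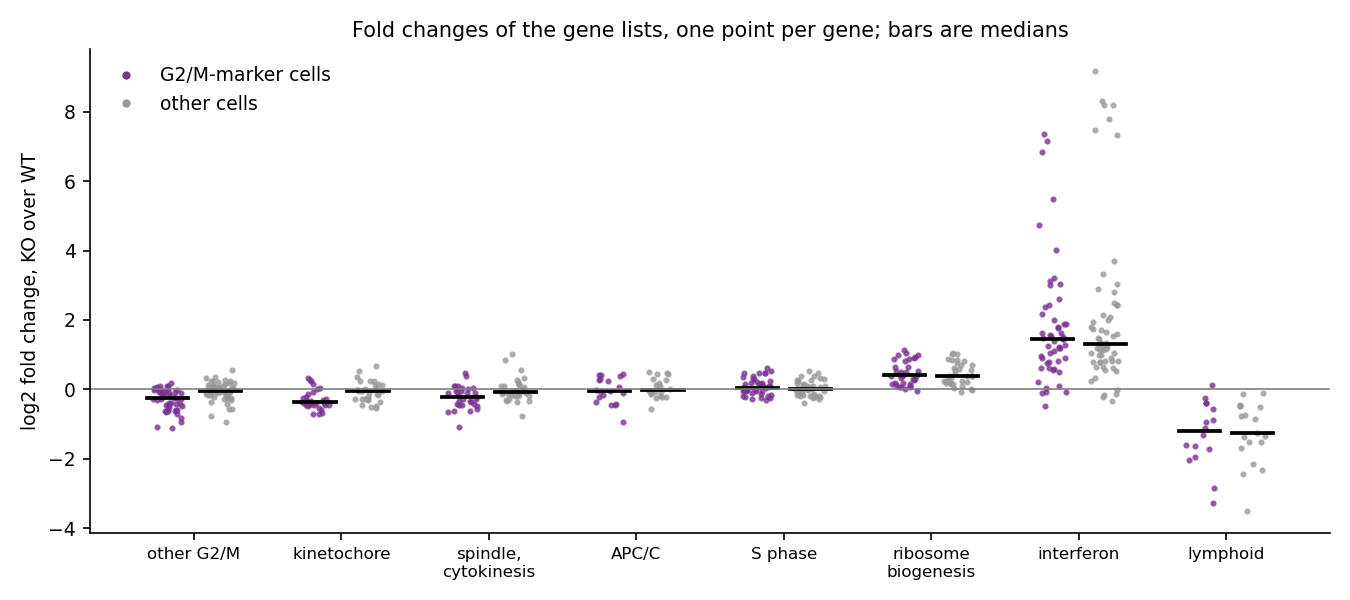
Log2 fold change, KO over WT (y axis), of each tested gene of 8 lists (x axis), in summed G2/M-marker cells (purple) and summed other cells (grey), with list medians as bars. Medians of the other G2/M and kinetochore lists are -0.26 and -0.37 in G2/M-marker cells and -0.04 and -0.05 in other cells, while those of the interferon list are 1.44 and 1.30.

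Summed lymphoid markers separated KO from WT, and summed erythroid markers did not. Summed granulocyte markers separated the groups in G2/M-marker cells only. Among other cells they overlapped, at 3142 and 1119 CPM in KO and 1827 and 947 CPM in WT. The median log2 fold change of the granulocyte genes in G2/M-marker cells was 0.72, and -0.04 without KO 1. In the G2/M-marker cells granulocyte genes summed to 2476 and 1166 CPM in KO and 1023 and 773 CPM in WT (17 of 20 in the table), lymphoid genes to 387 and 499 CPM in KO and 915 and 789 CPM in WT (20 of 21), and erythroid genes to 1754 and 507 CPM in KO and 2805 and 697 CPM in WT (23 of 24). Their part in the lower levels of mitotic genes was not tested.

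Whether KO changed G2/M-marker cells differently from other cells was tested as an interaction, with the library as a block. Of 12455 genes 1 was called (0.00803%): Ly6d, a surface marker gene of lymphoid progenitors. In G2/M-marker cells it had 8.59 and 7.51 CPM in KO, against 12.9 and 13.99 CPM in WT. In other cells it had 3.23 and 2.05 CPM in KO, against 36.6 and 30.4 CPM in WT. The difference of the KO effects was 2.95 (SE 0.37, adjusted p = 0.000237, edgeR quasi-likelihood F test). It was not called by DESeq2 (adjusted p = 0.382), with no sample block (adjusted p = 0.616), nor with the cells chosen on thinned counts, where the difference was 1.32 (adjusted p = 0.763). Of the 50 other G2/M genes 0 were called by edgeR or DESeq2, 12 and 3 of them at an unadjusted p under 0.05, with a median difference of -0.20, against -0.02 over all genes. The median was -0.14 with the cells chosen on thinned counts, -0.11 in cells with at least 2000 counts, -0.05 without KO 1 and -0.40 without KO 2.

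The number of calls in the interaction also moved with single libraries, being 17 without KO 1, 5 without KO 2, 3 without WT 1 and 40 without WT 2. The largest count thus came without WT 2.

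Bulk LSK RNA, in libraries of 20088100 to 40641081 counts, measured the same genes without the rule. In bulk samples, fewer cells of a type and less RNA per cell cannot be told apart. Of 14405 genes 6367 were called (44.2%), 3114 higher (21.6%) and 3253 lower (22.6%; 2463 and 4143 by library size alone). Of the 6 rule genes 1 was called, Cdc20, at 134, 139 and 135 CPM in KO, against 171, 179 and 186 CPM in WT, with no overlap. By library size alone 2 of the 6 were called, and 3 without WT 3. The log2 fold change of Cdc20 was -0.39 (SE 0.063, adjusted p = 0.00115, edgeR with Benjamini-Hochberg). Ccnb1 was at 125, 125 and 129 CPM in KO and 128, 134 and 120 CPM in WT (-0.01), and the groups overlapped. Top2a was at 1036, 1012 and 1011 CPM in KO and 1262, 1198 and 1001 CPM in WT (-0.18).

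The other G2/M genes did not share a direction in bulk: of 50, 8 were called higher and 11 lower, with a median of -0.02. By library size alone 5 were called higher and 17 lower, with a median of -0.11. All KO values lay above all WT values for 11 and below them for 16, against 26.8% and 27.8% of all genes. Nusap1 was called lower, with a mean of 87.4 ± 2.49 CPM in KO and 159 ± 15.1 CPM in WT (SD, n = 3 each; -0.86, adjusted p = 7.79e-05, edgeR). Ube2c was called lower, at 154 ± 1.05 CPM in KO and 188 ± 13.2 CPM in WT (-0.28, adjusted p = 0.00939, edgeR). Spc25 (-0.32), Ska2 (-0.49), Racgap1 (-0.33) and Kif23 (-0.51) were called lower too, and the cohesin regulator gene Cdca5 was called higher (0.93). Of 30 kinetochore genes 5 were called higher and 9 lower, against 21.6% and 22.6% of all genes, and 4 and 14 by library size alone.

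H3K4me3, a histone mark of active gene starts, was counted in 3 kb windows at transcript starts, each gene taking its window of highest mean count. Of 51039 genes 4024 were called (7.88%), 1644 higher (3.22%) and 2380 lower (4.66%; 1999 and 1993 with RLE size factors, 1305 and 3309 by library size alone). The balance was not stable: DESeq2 called 789 higher and 37 lower, and each fit with a library left out called more higher than lower, such as 2813 and 1045 without WT 1. Of the 6 rule genes 0 were called by edgeR with TMM or by DESeq2, and 0 had an unadjusted p under 0.05 in either. By library size alone 1 was called lower, and with a replicate block 2 were called higher. Cdc20 had 71.8 and 66.5 CPM in KO, against 71.4 and 58.7 CPM in WT (0.09), and Ccnb1 had 66.2 and 61.4 CPM in KO, against 63.6 and 54.2 CPM in WT (0.12). For all 6 genes the groups overlapped. The sign is set by the scaling, since by library size alone 5 of 6 lay below 0. The median over all genes was -0.15 with TMM, -0.04 with RLE and -0.40 by library size alone.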

How the data were processed

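Raw counts per gene and cell, per gene in bulk RNA-seq and per window for H3K4me3 were deposited by the authors, per the labels and the series' design text. The submitters' processing notes name Seurat 3.0, edgeR, STAR 2.5.3a, bedtools, Picard 2.9.0, Bowtie2 2.2.9 and the build GRCm38.p5. The counting tool, the strand setting and whether cell counts are unique molecules are not given in the sources used here, so reads of overlapping genes may be shared. Whole-liver input and J2 pull-down libraries hold no sorted LSK cells and were not used.

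Of 15707 cells, 15678 passed limits of 500 counts (minimum) and 20% mitochondrial counts (maximum). Scrublet (scanpy 1.11.5) called 1 cell a doublet (0.00638%), a share too low for the caller to have worked, so doublets were not removed. Counts summed per library and cell set were tested with edgeR 4.0.16 in R 4.3.3 (filterByExpr, TMM, quasi-likelihood F test, Benjamini-Hochberg adjusted p under 0.05 over all genes), KO over WT. The interaction used the 8 sums with the library as a block. Shares were compared by two-sided exact permutation tests over libraries (scipy 1.17.1). Intervals are exact Clopper-Pearson at 95% and cover counting error only. Thinning drew 1000 counts per cell without replacement. The fits were tested on simulated counts. Alternatives were other scalings, DESeq2 1.42.0, no filter, other rule thresholds, deep or thinned cells, each library left out and a replicate block. p-values measure the spread between the libraries, which are labelled biological replicates. In the interaction, with its library block, they rest on how the contrast between cell sets varied between libraries.

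The members, gene lists and tests were chosen with earlier results of these data known. Named genes were the 6 rule genes, Mettl3, called genes, at most 4 genes of lowest p per list, and the 20 highest and 10 lowest ratios between cell sets, beside those said to be named after their values were seen. H3K4me3 libraries held 11508749 to 14451593 counts, and the summed G2/M-marker cells 2137266 to 4280681.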

Additional observations from a re-analysis of the deposited data

Results flagged for a closer look

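Ly6d, a surface marker gene of lymphoid progenitors, stood out because its KO effect differed between G2/M-marker cells and other cells by 2.95 on the log2 scale in the interaction test (SE 0.37, adjusted p = 0.000237, edgeR quasi-likelihood F test with Benjamini-Hochberg adjustment). Its log2 fold change was -0.76 in G2/M-marker cells and -3.65 in other cells. Leaving out each library in turn gave adjusted p-values of 2.60e-09 to 0.00248 by edgeR. The call was lost with DESeq2 (adjusted p = 0.382), with no sample block (adjusted p = 0.616) and with the cells chosen on thinned counts, where the difference was 1.32 (adjusted p = 0.763).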

How the results depend on the processing

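The difference in share at the deposited depth turned positive without KO 1 (1.10 points) and without WT 1 (0.883 points), ranging from -5.43 to 1.10 points when single libraries were left out. The thinned difference kept its sign, at -2.76 to -1.001 points. Calls in G2/M-marker cells numbered 65 with DESeq2, 182 with no filter on low counts, 11 at threshold 4, 2 in cells with at least 2000 counts, 2 with the rule on thinned counts and 0 to 26 with a library left out. Interaction calls numbered 0 with DESeq2, 0 with no sample block, 3 in cells with at least 2000 counts, 0 with thinned counts and 3 to 40 with a library left out. H3K4me3 calls numbered 826 with DESeq2 and 1080 to 3858 with a library left out, and bulk calls stayed within 1.5 times of 6367. The cause was not tested in any case. The replicate numbers do not pair the libraries by label: same-numbered deviations correlated at 0.451 in single cells, 0.302 in H3K4me3 and 0.0442 to 0.230 in bulk. With a replicate block the calls were 1013 in G2/M-marker cells (12 of the other G2/M genes lower), 7288 in bulk and 20842 in H3K4me3, and the exact permutation p of the shares was 1 at the deposited depth and 0.5 after thinning. With 2 libraries a group, no share difference could pass 0.05, and genes at a few CPM rest on few counts.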
